A study of Mus musculus with 22 samples.

Results

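Afp, Alb, Apoa1, Apoa2, Apob, Ttr, Trf, Ahsg, Fgb and Rbp4 encode proteins of the blood plasma, and their transcripts were followed through 22 libraries of mouse pancreas. These 10 genes were taken by name from the count table, where they have 17 of the 30146 probes and 10 of the 21450 gene symbols. Afp is read by 4 probes, Apoa1, Apob, Trf and Fgb by 2 each, and the other 5 genes by 1 each. Whole pancreas was taken on the day of birth from C57Bl/6 dams and from 1 male and 1 female pup of each of 7 litters. The dams had been injected 2 times per week with corn oil (control) or with 20 ng/kg per day of TCDD, a dioxin that binds the aryl hydrocarbon receptor, from before mating until birth, so the pups were exposed through the dam. By label there were 4 dams of each treatment, 3 female and 3 male pups of control dams, and 4 female and 4 male pups of dams given TCDD. The assay, TempO-Seq, ligates pairs of short probes on their transcript and counts the products. Probes differ in efficiency, so levels were compared between libraries and not between genes.

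Plasma proteins are made mainly by hepatocytes, where a set of liver-enriched transcription factors acts on their promoters. The pancreas grows out of the same part of the foregut as the liver, and the organs lie close together in a newborn mouse. Afp is the main plasma protein of the fetus and is silenced after birth, when Alb takes its place as the carrier of fatty acids, bile pigment and hormones. Apoa1 and Apoa2 are the proteins of high-density lipoprotein, and Apob is the scaffold of the lipoproteins that export triglyceride from liver and gut. Ttr carries thyroid hormone and, with Rbp4, retinol, and it is also made in the endocrine cells of the pancreatic islet. Trf carries iron and is also made outside the liver. Ahsg (fetuin-A) holds calcium phosphate in solution, and Fgb is the beta chain of fibrinogen, the precursor of fibrin clots.

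The libraries were read in 2 classes, because stage-specific transcripts contradicted the stage label in 8 of the 22. In 14 libraries the summed Afp count exceeded that of Pnlip, the lipase of the mature acinar cell, and these are called newborn type. The other 8 are called adult type. The newborn type holds 10 libraries labelled pup and 4 labelled dam (control dams 2 and 4, TCDD dams 6 and 10). The adult type holds control dams 5 and 7, TCDD dams 8 and 11 and 4 libraries labelled pup (TCDD male pups 8, 10 and 11 and TCDD female pup 6). By chemical label the newborn type has 8 control and 6 TCDD libraries, and the adult type 2 and 6. The labels give 4 dams of each treatment. If the classes are the true stages, some chemical labels would therefore be wrong as well. Whether the chemical labels are right was not tested, which limits every comparison by that label. Library totals were 11223816 to 34911410 counts, so that 3 counts, the limit a count of 0 allows, correspond to 0.0859 to 0.267 counts-per-million (CPM). The summed acinar genes stood at 297117 to 366027 CPM in the newborn type and 429750 to 461587 CPM in the adult type, a large share of the counts in both. That sum includes Pnlip, which helped to set the classes.

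The 10 genes were abundant in every newborn-type library and near the detection limit in most adult-type libraries, apart from Ttr and Trf. The classes were chosen by the measured Afp and Pnlip counts, and the other 9 genes were taken up with their high values in newborn-type libraries already known, so the difference between the classes is a description and was given no test. In all 10 the lowest newborn-type library lay above the highest adult-type one. That was the case for 40.8% of the 21053 genes with a count, and the reverse for 0.28%, so separation of the classes was common in these data. The median gene stood higher in the newborn type by 1.73 on the log2 scale in CPM and by 0.13 after TMM scaling, a correction for the share of counts taken by the most abundant genes. The ratios below are of CPM and hold that shift. Fewer cells of a type and less RNA per cell cannot be told apart in such bulk samples.

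Among the carriers, Afp had a lowest, median and highest level of 468, 846 and 1487 CPM over the 14 newborn-type libraries, and of 0, 0.223 and 1.25 CPM over the 8 of adult type. Alb stood at 88.7, 172 and 348 CPM in the newborn type and at 0, 0.422 and 4.36 CPM in the adult type. Ahsg stood at 59.7, 108 and 171 CPM against 0, 0.0661 and 0.651 CPM. Adult-type Afp and Ahsg thus rested on a handful of reads, with median counts of 3.5 and 1 per library. The ratio of the class medians was 3798 for Afp and 409 for Alb. No ratio is given for Ahsg, whose adult-type median is 1 count. On TMM-scaled CPM with a pseudocount of 0.5 the log2 ratios of the medians were 9.24 for Afp and 6.29 for Alb, values that differ from the ratios of CPM in both the scaling and the pseudocount.

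The lipoprotein genes showed the same division. Apoa1 had a lowest, median and highest level of 134, 239 and 436 CPM in the newborn type and of 0, 0.182 and 2.41 CPM in the adult type. Apoa2 stood at 12.7, 22.3 and 36.8 CPM, and Apob at 9.53, 18.8 and 38.95 CPM, in the newborn type. In the adult type both had a median of 0, with at most 0.713 CPM for Apoa2 and 0.391 CPM for Apob. With the adult level set to a floor of 3 counts at the median depth, newborn-type medians were at least 124-fold higher for Apoa2 and 104-fold for Apob. No ratio is given for Apoa1, whose adult-type median is 3 counts. Fgb stood at 37.7, 73.5 and 134 CPM in the newborn type and was at 0 in 5 of the 8 adult-type libraries, a difference of at least 407-fold. Rbp4 was the lowest of the 10 in reads, at 2.23, 5.36 and 11.1 CPM from 25 to 180 counts per library, and at 0 in 6 of the adult-type libraries (at least 29.6-fold).

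Ttr and Trf were the only members present in every adult-type library. Ttr had a lowest, median and highest level of 80.5, 109 and 159 CPM in the newborn type and of 2.75, 7.47 and 11.7 CPM in the adult type, a ratio of medians of 14.6. Trf stood at 97.6, 160 and 305 CPM against 0.836, 2.99 and 9.42 CPM, a ratio of 53.6. Their adult-type values rested on 43 to 168 counts for Ttr and 16 to 154 for Trf. With TMM scaling the log2 ratio of the medians was 1.90 for Ttr and 4.09 for Trf. Ttr also varied least among the newborn-type libraries, by 1.98-fold from lowest to highest, while the other members varied by 2.87-fold (Ahsg) to 4.99-fold (Rbp4).

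**Figure D1:**
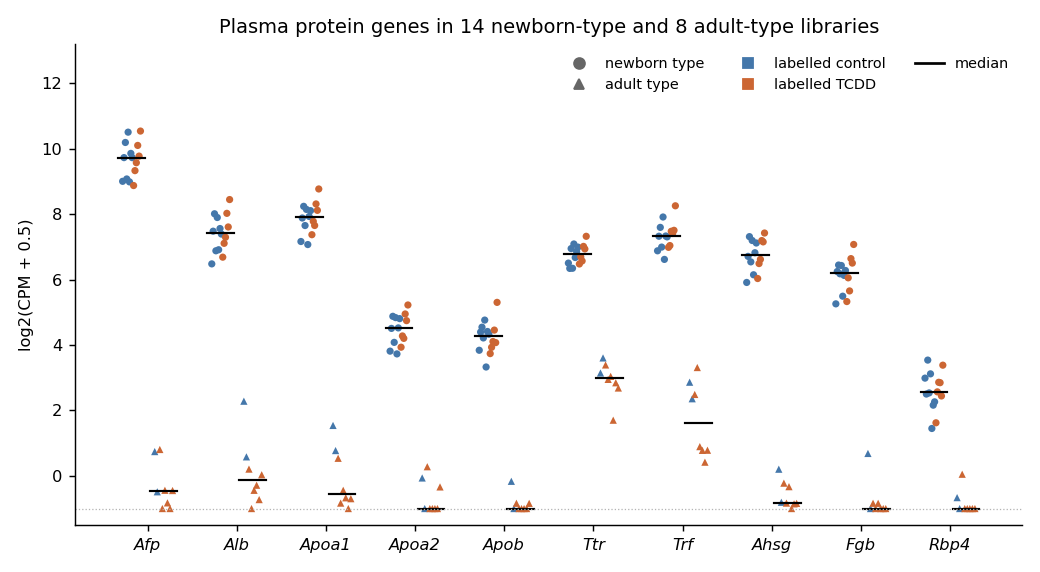
Level of each plasma protein gene as log2(CPM + 0.5), with a point for each of the 14 newborn-type libraries (circles) and 8 adult-type libraries (triangles), coloured by chemical label, and a bar at the class median; the dotted line marks 0 counts. The classes do not overlap for any gene, and only Ttr and Trf lie above the dotted line in all 8 adult-type libraries.

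Within the newborn type the members rose and fell together from library to library. Co-variation was measured on log2(CPM + 0.5) as Pearson's r and Spearman's rho with Alb, with a two-sided permutation test over the libraries and Benjamini-Hochberg adjustment over the 11167 genes with a median of at least 1 CPM. The permutations treated libraries as independent, although several share an animal number and so a litter. The permutation p-values make no allowance for that and may be too small. Of these genes, 0.698% (78) were called higher with higher Alb at an adjusted p under 0.05, and 0 were called in the other direction. Among the 9 other members 7 were called. Since the members were chosen with earlier results of these data known, the count describes them and is not independent evidence.

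By Pearson's r Afp followed Alb most closely of all genes, with r = 0.961 and rho = 0.956 (n = 14, adjusted permutation p = 0.00744), while by rho Ahsg was closer (0.960). The calls also took in Apoa2 (r = 0.943), Ahsg (r = 0.940), Apoa1 (r = 0.935), Fgb (r = 0.904), Trf (r = 0.884) and Apob (r = 0.848), whose adjusted permutation p was at most 0.0314. The Apob call was lost by Spearman's rho (adjusted permutation p = 0.0582) and with adjustment over all genes with a count (0.0535). Ttr, with r = 0.811 and rho = 0.789, missed the threshold (n = 14, adjusted permutation p = 0.0698). It passed on TMM-scaled values, with r = 0.861 (adjusted permutation p = 0.0299). Rbp4 had r = 0.596 and rho = 0.459 (n = 14, adjusted permutation p = 0.947). The 45 pairs among the 10 genes had r of 0.430 to 0.983 with a median of 0.852, and 30 of them were above 0.8. With each member in turn as the reference, 54 of the 90 ordered pairs were called. The share of all genes called higher was 0.672% with Afp, 0.806% with Apoa1, 0.734% with Apoa2, 0.358% with Apob, 0.519% with Trf, 0.672% with Ahsg, 0.645% with Fgb and 0% with Ttr and Rbp4.

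The high library was the same for most members. TCDD male pup 6 held the highest level of 9 of the 10 genes, Rbp4 being highest in control female pup 2. The lowest levels fell in control dam 2 (Alb, Ahsg, Fgb), control male pup 2 (Apoa1, Apoa2, Apob, Trf, Rbp4), TCDD dam 10 (Afp) and control dam 4 (Ttr). Without the libraries with the highest and the lowest Alb, TCDD male pup 6 and control dam 2, r with Alb was 0.963 for Afp, 0.880 for Apoa1, 0.914 for Apoa2, 0.786 for Apob, 0.730 for Ttr, 0.823 for Trf, 0.919 for Ahsg, 0.820 for Fgb and 0.750 for Rbp4. Over those 12 libraries 2 members, Afp and Ahsg, were still called, among 6 of the 11137 genes tested. In the 10 libraries labelled pup r ran from 0.759 (Rbp4) to 0.952 (Afp), with 0 genes called after adjustment and 9 of the 9 members at an unadjusted permutation p under 0.05, as were 7.99% of all genes. Alb had r = 0.140 with the log2 library total and r = 0.358 with the number of probes detected over the 14 libraries (permutation p = 0.643 and 0.220; rho = 0.160 and 0.503; r = 0.130 and 0.486 without the same 2 libraries).

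**Figure D2:**
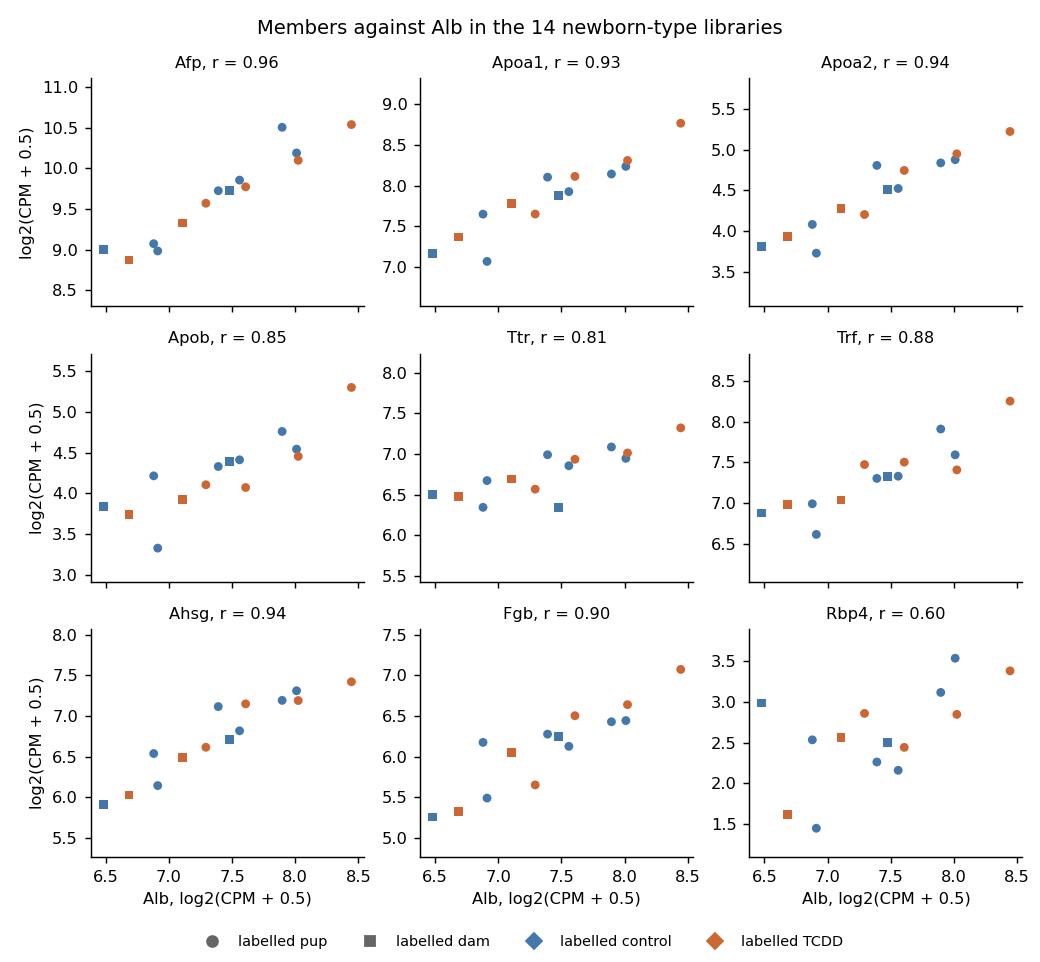
Each of the other 9 genes against Alb in the 14 newborn-type libraries, both axes as log2(CPM + 0.5) and every vertical axis spanning the same number of log2 units; circles are labelled pup, squares labelled dam, and colour gives the chemical label. Points lie along a rising line for Afp, Apoa1, Apoa2 and Ahsg, scatter more for Apob and most for Rbp4, and rise less steeply for Ttr; TCDD male pup 6 is at the top right.

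The ratio of 2 members within a library does not depend on its depth, and in the newborn type it was steadier for some pairs than for others. Afp counts were 4.22 to 6.11 times those of Alb over the 14 libraries, and Apoa1 counts 10.01 to 12.2 times those of Apoa2, the pair with the highest r (0.983). Ttr counts were 0.453 to 1.02 times those of Alb, a 2.24-fold range against 1.45-fold for Afp to Alb and 1.22-fold for Apoa1 to Apoa2. In the adult type Ttr counts were 1.91 to 32.8 times those of Alb in the 6 libraries with more than 3 counts of each, so the newborn-type proportion was not kept there. Trf likewise stood at 0.652 to 1.32 times Alb in the newborn type and at 1.55 to 7.82 times Alb in those 6 libraries.

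Different probes of 1 gene gave the same picture for most members. Over the newborn-type libraries the 4 Afp probes had pairwise r of 0.943 to 0.985, and the 2 probes of Trf, Apoa1 and Fgb had r of 0.960, 0.938 and 0.809. The 2 Apob probes had r = 0.662, the lowest of the genes with more than 1 probe. The SD of log2 levels between newborn-type libraries was 0.564 for Alb and 0.599 for Rbp4, and counting error alone gives 0.0262 and 0.147.

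The promoters of Alb, Afp and Fgb are shown because these co-varying genes share a pair of liver-factor motifs close to the start. The sequences are the last 120 bases before the annotated start in RefSeq (GRCm38.p6), with motif matches in capitals. 8 of the 10 members have a promoter in that table, which holds 32851.
Alb, chr5:90460750-90460869, plus strand: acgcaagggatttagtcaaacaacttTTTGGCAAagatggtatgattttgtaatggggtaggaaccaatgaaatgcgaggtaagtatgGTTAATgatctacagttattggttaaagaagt
Afp, chr5:90490594-90490713, plus strand: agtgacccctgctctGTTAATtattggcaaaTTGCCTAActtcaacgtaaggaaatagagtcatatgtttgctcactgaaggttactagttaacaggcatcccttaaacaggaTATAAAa
Fgb, chr3:83049864-83049983, minus strand: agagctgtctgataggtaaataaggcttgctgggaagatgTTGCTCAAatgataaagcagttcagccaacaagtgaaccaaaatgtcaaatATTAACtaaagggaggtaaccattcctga

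Alb and Afp lie side by side on chromosome 5. In these stretches the capitals mark GTTAAT, the core of the site bound by the hepatocyte factor HNF1,, and TTNNGCAA, a C/EBP motif, each on either strand, and TATAAA in Afp. All 250 bases before each start were searched on both strands. GTTAAT was found for Alb, Afp and Fgb, and in 6.43% of all promoters. TTNNGCAA was found for 7 members (Afp, Ahsg, Alb, Apoa2, Apob, Fgb and Rbp4) and in 9.56% of all promoters. TTGCGCAA, its palindromic form, was found for 0 members and in 0.164% of promoters. TGTTTAC, the FOXA motif, was found for Apoa2 and Rbp4 (3.17% of promoters), AAAGTCCA, an HNF4 motif, for Apoa2 (1.01%), and TATAAA for Afp, Apoa2, Apob and Rbp4 (12.4%). A match describes the letters only, and members with and without GTTAAT co-varied with Alb.

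Other plasma proteins and hepatocyte enzymes co-varied with Alb in the same libraries, while genes of other cell types were mostly not called. Besides Afp, Apoa2, Ahsg and Apoa1, the 10 genes with the highest r were Hp (haptoglobin, which binds free haemoglobin; r = 0.949), Cyp3a16 (0.947), Spp2 (0.940), Serpina1b (an alpha-1-antitrypsin; 0.937), Rgn (regucalcin, an enzyme of vitamin C synthesis; 0.937) and Cyp3a41b (0.936). Cyp3a16, Cyp3a41b and Serpina1b belong to families of near-identical genes, and their probes may share signal. Hp stood at 26.03, 50.9 and 71.0 CPM (lowest, median, highest) in these libraries. In all, 19 of the 38 other plasma protein genes tested were called with a median r of 0.819, and 8 of the 30 hepatocyte enzymes and receptors with a median r of 0.736, against a median r of 0.0333 over all genes. Among them the fibrinogen partners of Fgb, Fga and Fgg, had r of 0.904 and 0.893, and Apoh, a phospholipid-binding plasma protein, had r of 0.927.

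With Alb as the reference, no gene was called among those listed for handling the members' cargo or among the liver transcription factors. Of 20 genes of lipoprotein, iron and retinol handling 0 were called (median r 0.221). Several of these still had high r with Alb, among them Apoc1 (0.771), Apom (0.721), Apoc2 (0.717) and Apoe (0.695), all apolipoproteins, and Lipc, the hepatic lipase (0.750), which were chosen after their values were seen. Apoc1, Apoc3, Apoe and Apom are also in the list of other plasma proteins. Apoc4, which was called with Alb (r = 0.899), is in that list and not among the 20. With Trf, Apob and Fgb as the reference 2, 1 and 1 of the 20 handling genes were called, and 0 with each other member. With Alb, 0 of 14 liver transcription factors were called (median r 0.0226). Hnf4a, Foxa3 and Cebpa are among the latter, and Hnf4a stood at 12.8, 20.2 and 28.9 CPM. The acinar list had 0 of 23 called (median r -0.0714) and the islet list 0 of 19 (median r -0.0139). Of the other marker lists, erythroid had 0 of 8 called (median r 0.120), Schwann and nerve 0 of 9 (0.0665), adipocyte 0 of 6 (-0.0305) and spleen and lymphocyte 0 of 6 (0.229). The enterocyte list had 1 of 9 called (median r 0.284), Fabp1, a fatty acid binding protein of hepatocytes as well as enterocytes (r = 0.885).

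Some genes of the hepatocyte list were present in both classes, but most had a median under 1 CPM in the adult type. Their part in the members' levels was not tested. The 41 hepatocyte enzymes and receptors summed to 490.4 to 912 CPM in the newborn type and to 279 to 413 CPM in the adult type, and 30 and 8 of them had a median of at least 1 CPM. The 6 most abundant of them did not all move with Alb in the newborn type. Their r was 0.247 for Hsd17b13, -0.224 for Gls2 and -0.0752 for Ass1, but 0.647 for Mat1a, 0.795 for Fah and 0.866 for Cyp2e1. Of these 6 only Cyp2e1 was called (adjusted permutation p = 0.0172). Hsd17b13, a lipid droplet protein of hepatocytes, had a median of 101 CPM in the newborn type and 138 CPM in the adult type. Cps1, a urea cycle enzyme that marks hepatocytes, had 0.262, 2.10 and 3.29 CPM in the newborn type and a median of 0 in the adult type. Of the list, 15 members had a median count of 0 in the adult type, among them Cps1, Otc, G6pc, Tat and Slc10a1. Whether the member transcripts came from cells of the pancreas or from liver beside it was not tested.

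Intestinal genes stood high in a few newborn-type libraries, 1 of which, TCDD male pup 6, also held the highest level of most members. Fabp2, an enterocyte fatty acid binding protein, was at 360.0 CPM in control male pup 4, 97.7 CPM in TCDD male pup 6 and 50.2 CPM in TCDD dam 10, and at 6.81 to 29.2 CPM in the other 11. Control male pup 4 also held the highest Apoa4 (298 CPM) and Alpi (10.5 CPM), both genes of the enterocyte. Its Apoa1, which enterocytes make too, was at 243 CPM and its Alb at 188 CPM, close to the class medians. Without control male pup 4 and TCDD male pup 6 r with Alb was 0.952 for Afp, 0.908 for Apoa1, 0.778 for Apob and 0.544 for Rbp4. Over the remaining libraries 3 members (Afp, Apoa2 and Ahsg) were called, among 10 of the 11157 genes tested.

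**Figure D3:**
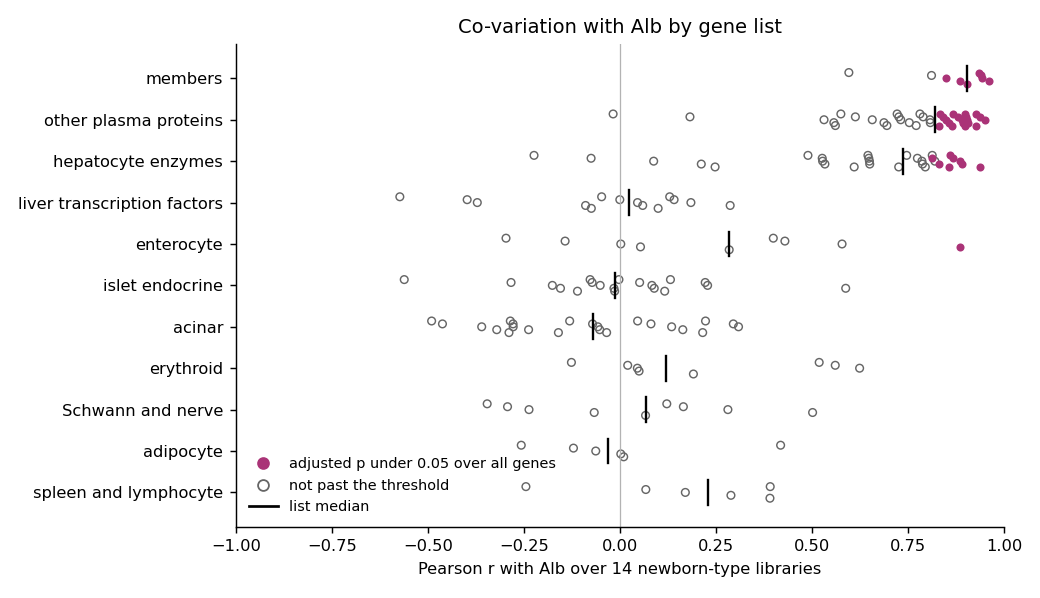
Pearson's r with Alb over the 14 newborn-type libraries for each gene of the members and of 10 gene lists, 1 point per gene, with filled points for an adjusted permutation p under 0.05 over all genes and a bar at the list median. Medians lie at 0.904 for the members, 0.819 for other plasma proteins and 0.736 for hepatocyte enzymes, and -0.0714 to 0.284 for the other lists, where Fabp1 of the enterocyte list is the only filled point.

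Ttr followed the rest of the group more loosely. Its r with the other members was 0.430 (Rbp4) to 0.812 (Apoa2), and with Ttr as the reference 0 genes were called by Pearson's r or by Spearman's rho, with 1387 of 11167 at an unadjusted permutation p under 0.05. The genes most like Ttr over the 14 libraries were Cyp2c70 (r = 0.940), Mbl1, a mannose-binding lectin (0.903), Afm, a vitamin E-binding relative of albumin (0.901), Pzp, a protease inhibitor (0.888), and Dpys, an enzyme of pyrimidine breakdown (0.883). Each had an adjusted permutation p of 0.0620. With the islet genes Gcg (glucagon) and Ins2 (insulin), r was 0.536 and 0.552 (rho 0.389 and 0.574; adjusted permutation p = 0.381 and 0.374). In the newborn type Ttr counts were 0.372 to 0.929 times those of Gcg, and in the adult type 0.203 to 1.27 times, so the ranges of this ratio overlapped between the classes. The adult-type range of that ratio was wide, 6.24-fold from lowest to highest. Those of Ttr to Alb did not overlap, with 2 adult-type libraries left out for low counts and with Alb far lower in that class. How often such ratios overlap for other genes was not examined, and the source of Ttr was not tested. Both ratios are descriptions on classes that Afp set.

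Rbp4 was the loosest of the 10, with r of 0.430 (Ttr) to 0.725 (Apob) with the other members. With Rbp4 as the reference 0 genes were called by either coefficient, with 640 at an unadjusted permutation p under 0.05. Control dam 2 weighed most on its relation to Alb: it had the lowest Alb, 88.7 CPM, and a Rbp4 of 7.43 CPM, above the class median. Without control dam 2 r of Rbp4 with Alb was 0.795.

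Between the TCDD and control labels, which were not themselves checked, no difference of the members beyond the spread of the libraries was detected in the newborn type. Alb had a lowest, median and highest level of 88.7, 172 and 257 CPM in the 8 libraries labelled control and of 102, 175 and 348 CPM in the 6 labelled TCDD. Afp stood at 506, 846 and 1452 CPM against 468, 817 and 1487 CPM, and Ttr at 80.5, 108 and 135 CPM against 88.5, 112 and 159 CPM. The ranges overlapped for all 10 genes. By edgeR's quasi-likelihood test the log2 fold change was 0.04 ± 0.236 (SE) for Alb and -0.05 ± 0.126 for Ttr, and the 17 member probes lay between -0.23 and 0.09 with a median of -0.05. None was called, nor was any of the 17109 probes tested (0%; 555 at an unadjusted p under 0.05, and 0 called by DESeq2). The median over all probes was -0.0014. Leaving out any 1 library kept the Alb value between -0.16 and 0.16.

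In the adult type the label comparison rests on 2 control libraries. Both are labelled dam, while 4 of the 6 TCDD libraries are labelled pup, so the chemical label is confounded with the stage label. Over all 8 libraries the median log2 fold change of the 5 member probes tested was -0.71. In the libraries labelled dam alone, 2 of each treatment, it was 0.02. Alb was at 4.36 and 0.995 CPM in control dams 5 and 7, from 67 and 14 counts, and at 0, 0.278 and 0.653 CPM (lowest, median, highest) in the 6 libraries labelled TCDD. Alb and Apoa1 were the 2 of the 10 members with both control libraries above all 6 TCDD libraries, an order found for 2.81% of all genes. By edgeR's quasi-likelihood test the log2 fold change of Alb was -3.05 ± 0.763 (SE; adjusted p = 0.9999), and without control dam 5 it was -1.39. With no low-count filter Alb was called (adjusted p = 9.69e-05), as were 112 of all probes. Only 5 member probes passed the low-count filter (Alb, Ttr, 2 of Trf and 1 of Apoa1), so this fit is silent on the others. None of the 5 was called, nor was any of the 13513 probes (0%; 388 at an unadjusted p under 0.05, and 0 by DESeq2).

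The difference of the label effect between the classes was tested as an interaction over all 22 libraries. Its adult-type part rests on the same 2 control libraries and is confounded with the stage label in the same way. The difference was 3.11 ± 0.744 for Alb on the log2 scale, newborn type minus adult type, with an adjusted p of 0.254 by edgeR. One of the 2 Apoa1 probes had 3.84 ± 1.08 with edgeR (adjusted p = 0.301) and was called by DESeq2 (adjusted p = 0.0237). In the adult type these 2 probes had median counts of 0 and 3 and highest counts of 19 and 18. All 17 member probes entered this fit, although only 5 passed the low-count filter in the adult type alone. For the others the adult-type part rests on counts near the floor. With no low-count filter edgeR called the Alb probe (3.14 ± 0.635, adjusted p = 0.0448). By edgeR 0% of the 19209 probes were called (1523 at an unadjusted p under 0.05), and DESeq2 called 23.

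Compared as labelled, the members gave wide errors, since each group of dams and of TCDD pups mixed both classes. In the dams Alb had a log2 fold change of -0.54 ± 1.499 (SE) for TCDD against control, and Afp, by its 4 probes, between -0.53 and -0.69. In the pups Alb had -0.81 ± 1.07 and Ttr -0.82 ± 0.485. None of the 17 member probes was called in either comparison by edgeR or DESeq2, nor was any other probe by edgeR (0% of 15594 in the dams, with 150 at an unadjusted p under 0.05, and 0% of 17003 in the pups, with 2456). DESeq2 called 0 probes in the dams and 90 in the pups. Without the 4 adult-type libraries, a comparison added after the data were seen, the pup values were 0.24 ± 0.203 for Alb and 0.02 ± 0.132 for Ttr. Without TCDD male pup 6, the male pup labelled TCDD that was of newborn type, the Alb value with all other pups was -3.09 ± 1.36 (SE; edgeR adjusted p = 0.164), with all remaining male pups labelled TCDD of adult type.

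Within the adult type Trf differed by stage label. It stood at 6.77 and 4.62 CPM in control dams 5 and 7 and at 9.42 and 5.11 CPM in TCDD dams 8 and 11. In TCDD male pups 8, 10 and 11 and TCDD female pup 6 it stood at 1.22, 1.22, 0.836 and 1.36 CPM. Every library labelled dam lay above every library labelled pup, as did those of 1.12% of all genes. The comparison was chosen after these values were seen, so its test describes the difference and is not independent of it.

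By edgeR's quasi-likelihood test the 2 Trf probes had log2 fold changes of 2.83 ± 0.412 and 2.26 ± 0.374 (SE) for dam against pup label, with adjusted p of 0.0125 and 0.0232. They were among 15 of the 11707 probes called (0.128%), all higher in the libraries labelled dam. Ttr had 0.69 ± 0.255 and was not called (adjusted p = 0.600), and the other members did not pass the low-count filter. Both control libraries are labelled dam. Within the libraries labelled TCDD, 2 dams against 4 pups, both Trf probes were called, with log2 fold changes of 3.09 and 2.47. These libraries are a part of the same set, so that call is not a separate test. Without TCDD dam 8, TCDD male pup 10 or TCDD male pup 11 neither Trf probe was called, at log2 fold changes of 2.00 to 2.82. Without TCDD female pup 6 or TCDD male pup 8, and with library totals in place of TMM scaling, 1 of the 2 was called.

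The other 13 called probes were each of a different gene, and no enrichment was tested. Adipoq (adiponectin), Retn (resistin) and Cfd (adipsin) are hormones and secreted proteins of the adipocyte, and Me1 (malic enzyme) supplies the reducing power for fat synthesis. Igkc, Ighm, Iglc3 and Jchain encode parts of antibodies, Coro1a, Tyrobp and H2-Ab1 are genes of leukocytes, and Apoe (apolipoprotein E) and Pygl (liver glycogen phosphorylase) were called as well. Adipoq stood at 4.10, 4.90, 17.3 and 7.48 CPM in control dams 5 and 7 and TCDD dams 8 and 11, and at 0 in 3 of the 4 libraries labelled pup and 0.128 CPM in TCDD male pup 10. The 18 adipocyte markers summed to 13.1 to 102 CPM over the adult-type libraries, with Cidea, Lep, Ucp1 and Thrsp at a median count of 0. TCDD dam 8 held the highest Adipoq, the highest adipocyte sum and the highest Trf. The part of adipocytes in the Trf level was not tested.

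The genes most like Trf over the 8 adult-type libraries were, in order of Pearson's r, Adipoq, Pygl, Casp12, Me1 and Npc2. Since the libraries fall into separate groups by stage label in these genes, no pooled coefficient is given. Over the 14 newborn-type libraries the genes most like Trf were Abcb11, the bile salt export pump (r = 0.953), Serpinf2, the antiplasmin (0.932), Serpind1, a thrombin inhibitor (0.931), Afp (0.923) and Plg, plasminogen (0.922), each with an adjusted permutation p of at most 0.0160. In that class Adipoq was at 0 in 10 of the 14 libraries and at most at 0.298 CPM.

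**Figure D4:**
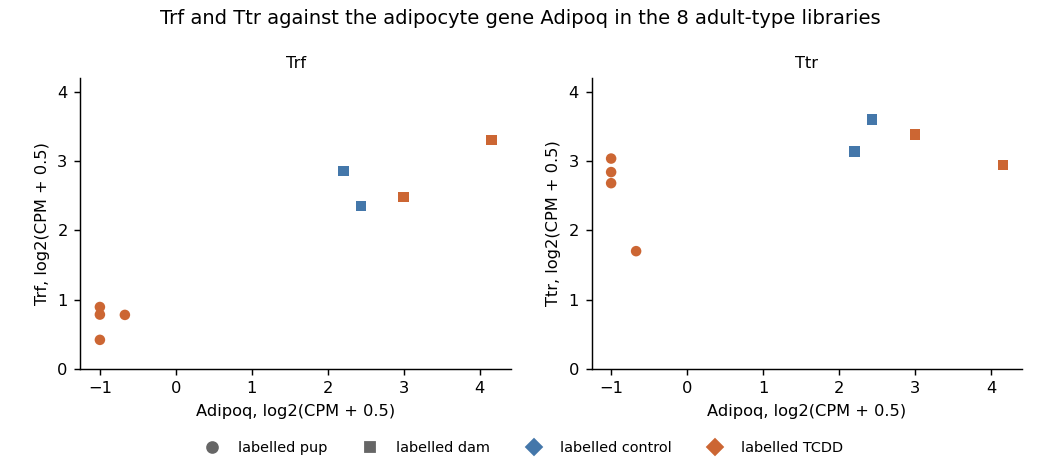
Trf (left) and Ttr (right) against Adipoq in the 8 adult-type libraries, all as log2(CPM + 0.5); squares are labelled dam, circles labelled pup, and colour gives the chemical label. For Trf the 4 dam-labelled libraries lie above and to the right of the 4 pup-labelled ones, while for Ttr the library labelled TCDD female pup 6 (7.73 CPM) lies above TCDD dam 8 (7.22 CPM).

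Co-variation of the members could hardly be read in the adult type, where only Ttr and Trf had a median of at least 1 CPM. Ttr had r = 0.321 with Alb (rho 0.548; n = 8, exact permutation p = 0.368), and Alb itself was at 3 or fewer counts in 2 of the 8 libraries. Without control dam 5 and TCDD dam 8, the libraries farthest from the median Alb, r was 0.511 for Ttr. No coefficient is given for Trf, whose levels separate by stage label in these libraries. With Alb as the reference 0% of the 7615 genes were called in either direction, with 116 at an unadjusted permutation p under 0.05. Over all 19895 genes with a count, r of the members with Alb ran from 0.321 (Ttr) to 0.913 (Apoa1). None was called, and 5 of the 9 members had an unadjusted permutation p under 0.05, as had 1.93% of all genes. Apart from Ttr and Trf these members had median counts of at most 3.5, so their coefficients rest on values near the floor.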

How the data were processed

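Counts for each probe in 22 libraries were deposited raw, with no normalization, per the file headers. The submitters' processing notes name bcl2fastq 2.17.1.14. Aligner and build: not given in the sources used here. The labels describe no molecular identifiers. Counts are therefore reads, and a floor of 3 counts covers counting error only. Stage, sex, chemical and animal number come from the labels; replicates are separate animals, but 2 pups share each litter. Every pair of libraries of 1 group and class differed by more than counting noise (chi-square over its degrees of freedom at least 8.09). The members, gene lists, classes and tests were chosen with earlier results of these data known.

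CPM are counts-per-million of the library total, summed over the probes of a gene. The quasi-likelihood test of edgeR 4.0.16 (R 4.3.3; TMM scaling after filterByExpr, Benjamini-Hochberg adjustment, threshold 0.05) gave the label effects on the libraries of each comparison, with labelled sex as a covariate in the pups and all 22 libraries in the interaction. DESeq2 1.42.0 and limma 3.58.1 served as alternatives. Co-variation used log2(CPM + 0.5) and 100000 permutations of the libraries (all orders for 8; smallest p of the 100000, 1e-05), adjusted over all genes with a class median of at least 1 CPM, with each of the 10 members as reference in the newborn type and 3 in the adult type. The fits and correlations were tested on simulated data. Animal numbers mark a litter but control and TCDD labels share none, so the litter entered as a random effect only, in an alternative to the label fits. The permutations took no account of it. Named genes were all members, the 10 genes most like Alb, the 5 most like Ttr, at most 6 genes per list by level, and Pnlip, Gcg and Ins2; the genes most like Trf, those of the stage label comparison and list members named beyond these were chosen after their values were seen. Promoters are from RefSeq (GRCm38.p6), 250 bases before each start.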

Additional observations from a re-analysis of the deposited data

Results flagged for a closer look

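Among 30 groups of values examined for a library far from the others, 6 held one. The cutoffs give about 1 in 20 by chance only for independent groups of normally distributed values. These CPM were not log-scaled, many adult-type values lay near the floor, and the members co-varied. The number flagged is therefore not compared with chance. In the adult type the library labelled control dam 5 stood apart as the highest for Alb, at 4.36 CPM from 67 counts with the next library at 0.995 CPM, for Fgb, at 1.11 CPM from 17 counts with the next at 0.0594 CPM, and for Apob, at 0.391 CPM from 6 counts with the next at 0.0594 CPM. It was also the highest for Serpina1b, at 4.23 CPM. TCDD dam 11 stood apart for Rbp4, at 0.535 CPM from 9 counts with the next library at 0.130 CPM.

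In the newborn type TCDD male pup 6 stood apart from the other 5 libraries labelled TCDD as the highest for Apob, at 39 CPM with the next at 21.4 CPM, and for Trf, at 305 CPM with the next at 181 CPM. The same library had the highest Alb, and the second highest Fabp2 of the class, at 97.7 CPM.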

How the results depend on the processing

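No value changed direction under any alternative in a result that passed its test. Of the results that answer a comparison, 81 values under alternatives stayed on the same side or within 1.5 times, and 19 moved. Co-variation with Alb called 7 of 9 members, and 2 without the 2 libraries farthest from the median Alb (6 genes in all), 0 in the libraries labelled pup alone, and 3 without the 2 libraries with the highest Fabp2 (10 genes), in subsets of 12, 10 and 12 of the 14 libraries; the cause was not tested. By Spearman's rho 41 genes were called in place of 78, with 6 members, and over all genes with a count also 6 members; Apob was the member lost in both. Leaving out 1 library kept r with Alb at 0.953 to 0.979 for Afp, 0.737 to 0.906 for Ttr and 0.503 to 0.795 for Rbp4.

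For the TCDD label in the adult type the count of 0 became 112 with no low-count filter and 0 to 2 when 1 library was left out, the 2 without control dam 5. In the pups as labelled DESeq2 called 90. For the difference between classes DESeq2 called 23, library totals without TMM 6 and no filter 9, with 1 member probe each for DESeq2 and for no filter. For the stage label in the adult type, added after seeing the data, the 15 probes became 36 with DESeq2, 4 without TMM, 58 in the libraries labelled TCDD, and 2 to 87 when 1 library was left out: 87 without control dam 5, 9 without control dam 7, 13 without TCDD dam 11, 3 without TCDD dam 8, TCDD female pup 6, TCDD male pup 8 or TCDD male pup 10, and 2 without TCDD male pup 11. The cause was not tested. With the litter as replicate block (limma-voom, random effect; within-litter correlation 0.0129, 0.0706 and -0.351) 0 probes were called in the newborn type, the adult type and the pups as labelled; the dams have 1 library per litter, so no paired analysis was possible because no number is shared there. Depth limits the adult type: at 3 counts or fewer a member was not detectable, which does not show that it is absent.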
